A study of Mus musculus with 6 samples.

Results

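The genes described here encode the proteins of the cytosolic ribosome. They were chosen by symbol: every protein-coding gene whose symbol is Rpl or Rps followed by a number, with or without a closing a, x or l, together with Rpsa and the Rplp genes. The rule took 78 of the 23407 genes listed, 31 of the small subunit, 44 of the large subunit and 3 of the P stalk. It takes the paralogs Rps27l and Rpl39l, and it leaves out some other genes that encode ribosomal proteins, such as Rps3a1 and Fau.

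RNA from cultured mouse dermal fibroblasts was sequenced in bulk, with 3 libraries from wild-type (WT) mice and 3 from mice labelled TSP2KO, which lack thrombospondin-2, a matricellular glycoprotein encoded by Thbs2. All the mice were 12 weeks old. The cells came from dorsal dermis digested with collagenase, were kept in serum-containing medium for 3 to 5 days, and gave RNA at passage 1 for a stranded poly(A) library. Neither the way the TSP2KO allele was made nor whether each library had its own animal is stated in the labels. A p-value here therefore measures the spread among libraries, part of which may be technical.

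Each cytosolic ribosome has a small subunit, which reads the messenger RNA, and a large subunit, which forms the peptide bonds. Its proteins are made in near-equal amounts, and their genes are among the most highly expressed in growing cells. Their messengers share a pyrimidine-rich 5′ end, the terminal oligopyrimidine (TOP) tract, through which mTOR signalling and the RNA-binding protein Larp1 control their translation. Spliced ribosomal protein messengers have been copied back into the mammalian genome many times, so most of these genes have intronless pseudogene copies that resemble the coding sequence.

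Thbs2 was read first as a check of the labels. It stood at 122061 and 116720 normalised counts in WT 1 and WT 2, at 8841 in WT 3, and at 5177, 6635 and 4891 in TSP2KO 1, 2 and 3. For Thbs2, the library labelled WT 3 therefore goes against its label and lies near the TSP2KO libraries. This concerns Thbs2 only, and the macrophage markers given below place that library nearer WT 1 and WT 2. All comparisons keep the groups as labelled, and fold changes and list medians are also given without the library labelled WT 3. The total of each library divided by the worth of 1 read put the depth between 14776497 and 34599820 reads, and WT 2 and WT 1, in that order, were the deepest.

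Sequence comes before the values, because most members share their coding sequence with other genes and this bears on what their rows hold. In GENCODE M21 transcripts, a median of 7.69% of the 50-base windows of a member's coding sequence occurred in no other gene. For 29 members no window was unique, and only 12 members had at least 50% unique windows. Rps27, a zinc-binding protein of the small subunit, is one without a unique window. Its coding sequence was identical over all 252 bases to that of the retrogene Rps27rt, on chromosome 9, while the paralog Rps27l, with 51.7% unique windows, differed at 60 positions. The first 120 coding bases of the 3 genes are shown, with capitals where a base differs from Rps27.
Rps27: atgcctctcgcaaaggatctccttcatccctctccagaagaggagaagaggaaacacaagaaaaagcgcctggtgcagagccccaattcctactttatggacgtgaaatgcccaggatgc
Rps27rt: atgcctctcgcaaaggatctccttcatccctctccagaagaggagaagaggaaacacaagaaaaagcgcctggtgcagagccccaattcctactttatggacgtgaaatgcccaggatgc
Rps27l: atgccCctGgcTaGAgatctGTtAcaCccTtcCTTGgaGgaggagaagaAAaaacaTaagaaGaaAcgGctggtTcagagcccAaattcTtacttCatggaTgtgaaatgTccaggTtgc

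Rpl39, a small protein lining the exit tunnel of the large subunit, and its paralog Rpl39l, known for its expression in testis, were 85.5% identical over 152 aligned coding bases. Every window of Rpl39l was unique, against 13.5% for Rpl39. Their first 120 coding bases are shown because the paralogs share no window with each other, with capitals where Rpl39l differs.
Rpl39: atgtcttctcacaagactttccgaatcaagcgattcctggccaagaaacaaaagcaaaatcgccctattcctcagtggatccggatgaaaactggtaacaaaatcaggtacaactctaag
Rpl39l: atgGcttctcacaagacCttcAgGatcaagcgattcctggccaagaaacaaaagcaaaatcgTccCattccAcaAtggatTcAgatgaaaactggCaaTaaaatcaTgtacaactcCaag

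Rpl10, a protein that joins the large subunit late in its maturation, was identical over all 642 coding bases to Rpl10-ps3, which the annotation lists as protein coding. Rpl10 lies at chrX:74270812-74273135 on the plus strand of mm10, and Rpl10-ps3 at chr9:50344201-50344968 on the minus strand. The first 120 coding bases, the same in both, are shown once.
Rpl10: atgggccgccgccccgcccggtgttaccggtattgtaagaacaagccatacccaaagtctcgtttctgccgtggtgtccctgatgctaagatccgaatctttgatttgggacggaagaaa

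Short motifs of the TOP tract were looked for in RefSeq promoters of build GRCm38.p6, which held 58 of the members. A run of CTTTCC or CTTTTC on the gene's strand within 50 bases of the annotated start was present in 27 of the 58 members (46.6%) and in 8.56% of the 10230 other tested genes with an entry. Both motifs lie inside the longer pyrimidine runs typical of a TOP tract. A TOP tract begins at the 5′ end, but matches lay as far off as -38 bases (Rpl12) and 43 bases (Rpl10) from the annotated start. A match is therefore not itself a TOP tract, and a member without a match may still have one. Short windows at the start of 4 members are shown, chosen from those whose run began 0 to 3 bases from the annotated start, with the run in capitals. Rpl38 lies at chr11:114668568-114668597 (plus strand), Rps27 at chr3:90213630-90213659 (minus strand), Rpl28 at chr7:4792955-4792984 (plus strand) and Rpl27a at chr7:109519186-109519215 (plus strand).
Rpl38: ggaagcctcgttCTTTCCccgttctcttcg
Rps27: ccgctttcgctcCTTTCCggcggtgacgac
Rpl28: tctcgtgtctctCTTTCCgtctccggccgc
Rpl27a: gtgagctcctccCTTTTCcctttctgccac

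Other promoter motifs were searched in the whole 300-base window on both strands, except as stated. CCGGAAG, a core bound by ETS factors such as Gabpa, was in 43.1% of the 58 members and 19.8% of the other genes. AAGATGGC, a core of Yy1 sites, was in 8.62% and 5.13%. TATAAA or TATATA on the gene's strand in the 50 bases before the start was in 5.17% and 2.41%. A match describes the letters only and is no evidence of binding. The 27 members with a CTTTCC or CTTTTC match had a median log2 fold change, TSP2KO minus WT, of 0.42, and the 31 without it 0.44. These were 0.73 and 0.75 without the library labelled WT 3.

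The member rows held less than 1% of each library, and their copies held more. In WT the 78 members took 0.276%, 0.333% and 0.583% of all normalised counts, the last in the library labelled WT 3. In TSP2KO they took 0.537%, 0.440% and 0.563%. Another 713 listed rows share coding sequence with a member, 708 of them annotated as pseudogenes, and these rows held 0.335%, 0.382% and 0.700% in the WT libraries and 0.631%, 0.551% and 0.660% in the TSP2KO libraries. The copies thus held more than the members in every library, and members took 44.4% to 46.6% of the sum of both. For 49 members the copy rows summed above the member's own row. Both shares were lowest in WT 1 and WT 2 and higher in the other 4 libraries.

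**Figure D1:**
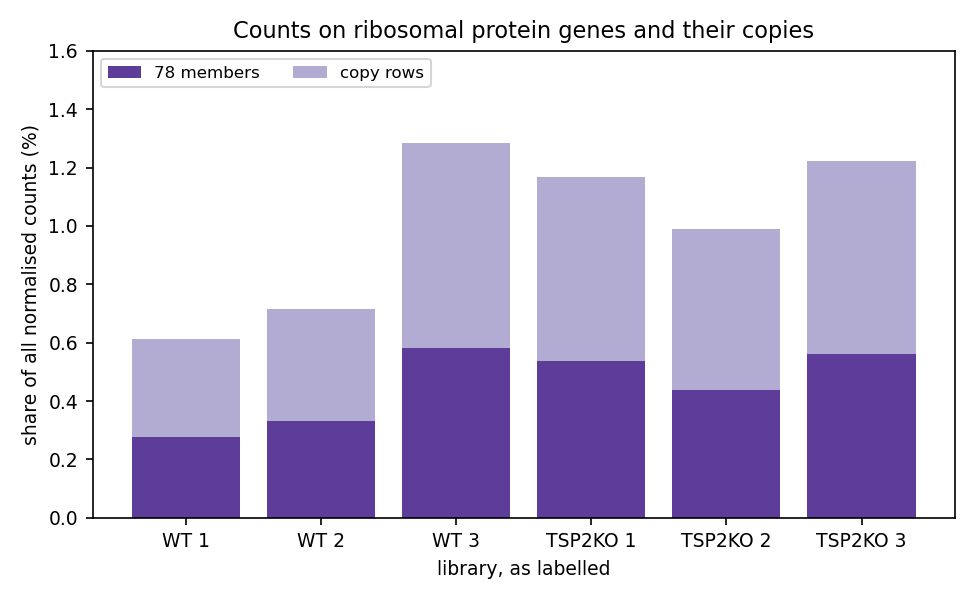
Share of all normalised counts (percent, vertical axis) held by the 78 members and stacked above them the 713 rows that share their coding sequence, in each of the 6 libraries. The bars reach 0.611% and 0.715% in WT 1 and WT 2 and between 0.990% and 1.28% in the other 4 libraries.

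Member values were seldom whole reads. Between 20 and 2000 reads, 79.2% to 80.7% of the values of other protein-coding genes were whole multiples of the worth of 1 read, within 0.02 of a read, but only 6.06% to 11.3% of the members' values were. For 53 members none of the 6 values was whole. Rps21 and Rpl39l, with 54.5% and 100% unique windows, were whole in 6 of 6 libraries. A read that fits several genes and is divided among them leaves such fractions. Whether this was done here is not given in the sources.

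The level of a member's row went with how much of its sequence was unique. Per kilobase of coding sequence, the median over members was 378 normalised counts where no window was unique, 930 where some but under 50% were, and 2857 where at least 50% were. Spearman's rho between the share of unique windows and the level per coding kilobase was 0.61 over the 78 members, and 0.10 once each member's copies were added to it. These points share the libraries and are a description only. Levels of single members should therefore not be read as an order of expression.

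**Figure D2:**
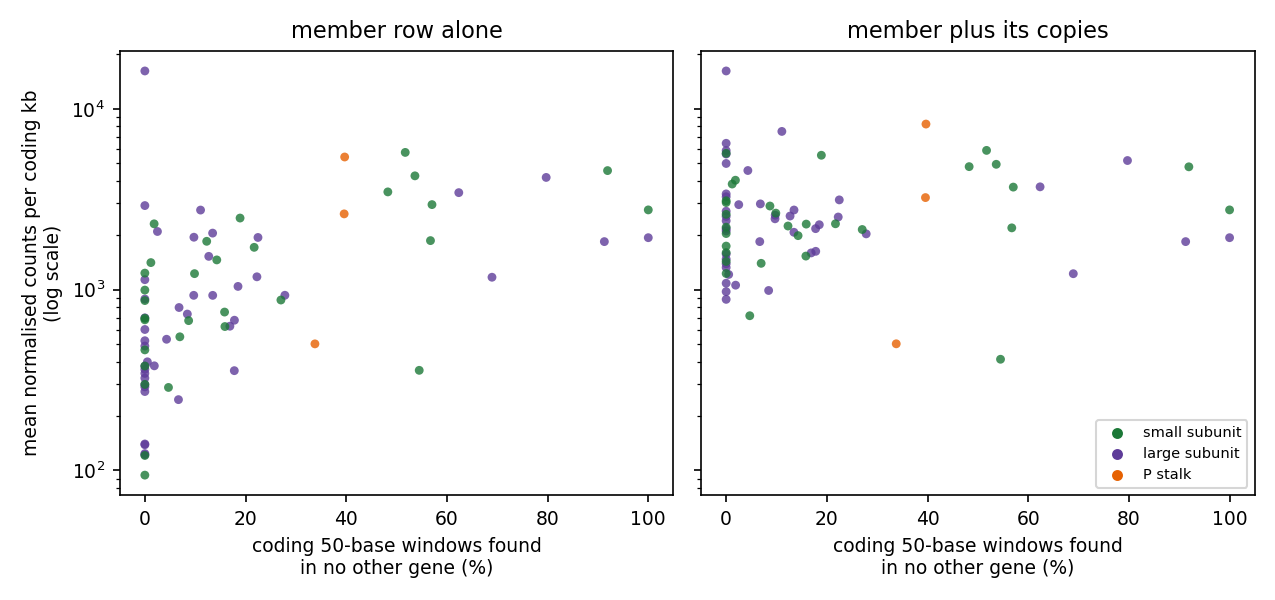
Mean normalised counts per kilobase of coding sequence (log scale) against the share of 50-base coding windows found in no other gene, for the member's row alone (left) and with its copies added (right), 1 point per member, coloured by subunit. At left the members without a unique window have a median of 378, and the point above them at 16210 is Rpl41, whose coding sequence has 75 bases.

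Across libraries the members moved together, and the split did not follow the labels. Each member was set against its own WT 1 and WT 2 average on log2(value + 1). The median member was 0.78, 0.48 and 0.92 higher in TSP2KO 1, 2 and 3, and 0.94 higher in the library labelled WT 3. The same median over all tested genes lay between -0.03 and -0.01 in those 4 libraries. WT 1 was the lowest library for 73 of 78 members, against 23.5% of tested genes, and WT 1 and WT 2 were the lowest pair for 61 (78.2%, against 18.2%). The library labelled WT 3 was above both other WT libraries for 74 members (94.9%, against 39.4%) and within the range of the TSP2KO libraries for 53 (67.9%, against 43.6%). Within TSP2KO, library 2 was the lowest for 74 members (94.9%, against 36.9%), and TSP2KO 3 was the highest of all 6 libraries for 49 (62.8%, against 19.8%).

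**Figure D3:**
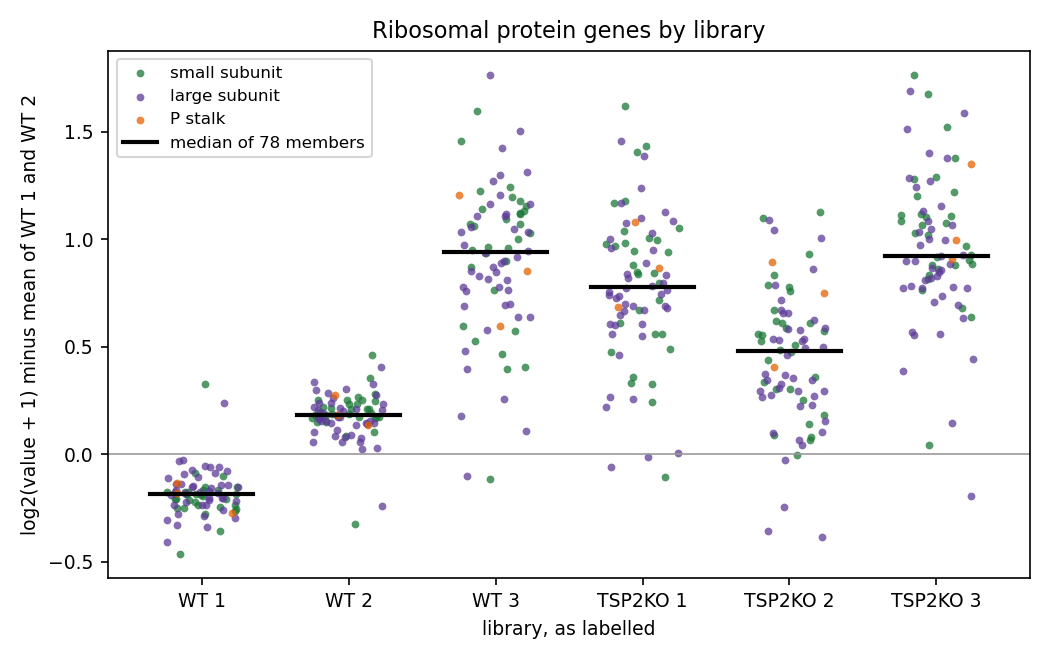
Log2(value + 1) of each of the 78 members minus its mean in WT 1 and WT 2, by library, with points coloured by subunit and bars at the median. The medians are 0.78, 0.48 and 0.92 in the TSP2KO libraries and 0.94 in the library labelled WT 3, and the SD over members within a library is 0.32 to 0.35 in these 4.

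Between the labelled groups, no member passed the test. With limma and Benjamini-Hochberg adjustment over the 14707 genes tested, 0 of 78 members were higher in TSP2KO (background 0%) and 0 were lower (background 0.0612%, 9 genes). At an unadjusted p under 0.05 the count was also 0, by limma (background 3.66% higher and 6.09% lower) and by limma-voom (3.71% and 5.96%). All members passed the filter on low values. The median member was 0.43 higher on the log2 scale, beside -0.01 over all tested genes, and 76 of 78 fold changes were above 0. No member's 95% interval lay wholly above or below 0, with adjusted p from 0.527 to 0.993. No member had groups that did not overlap (0 of 78, against 5.90% of tested genes higher and 8.27% lower in TSP2KO).

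The library labelled WT 3 decided much of this. Without it, 3 members were higher in TSP2KO, 3.85% against a background of 2.43%, and 0 were lower (background 2.75%). The median rose to 0.73, beside -0.03 over all tested genes, and all 78 fold changes were above 0. At an unadjusted p under 0.05, 56 members were higher (71.8%, against 11.8%). For 61 members every TSP2KO value then lay above both WT values (78.2%, against 21.1%), and for 0 below both (against 22.3%). Without WT 1 in its place, the median fell to 0.18 and 0 members passed, as did 0% of all tested genes. With copies added to each member and the library labelled WT 3 left out, 8 were higher (10.3% against 2.45%): Rpl41, Rps13, Rpl36, Rpl11, Rps21, Rps29, Rpl27 and Rps26, of which Rps13, Rpl36 and Rpl27 are named after their values were seen.

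**Figure D4:**
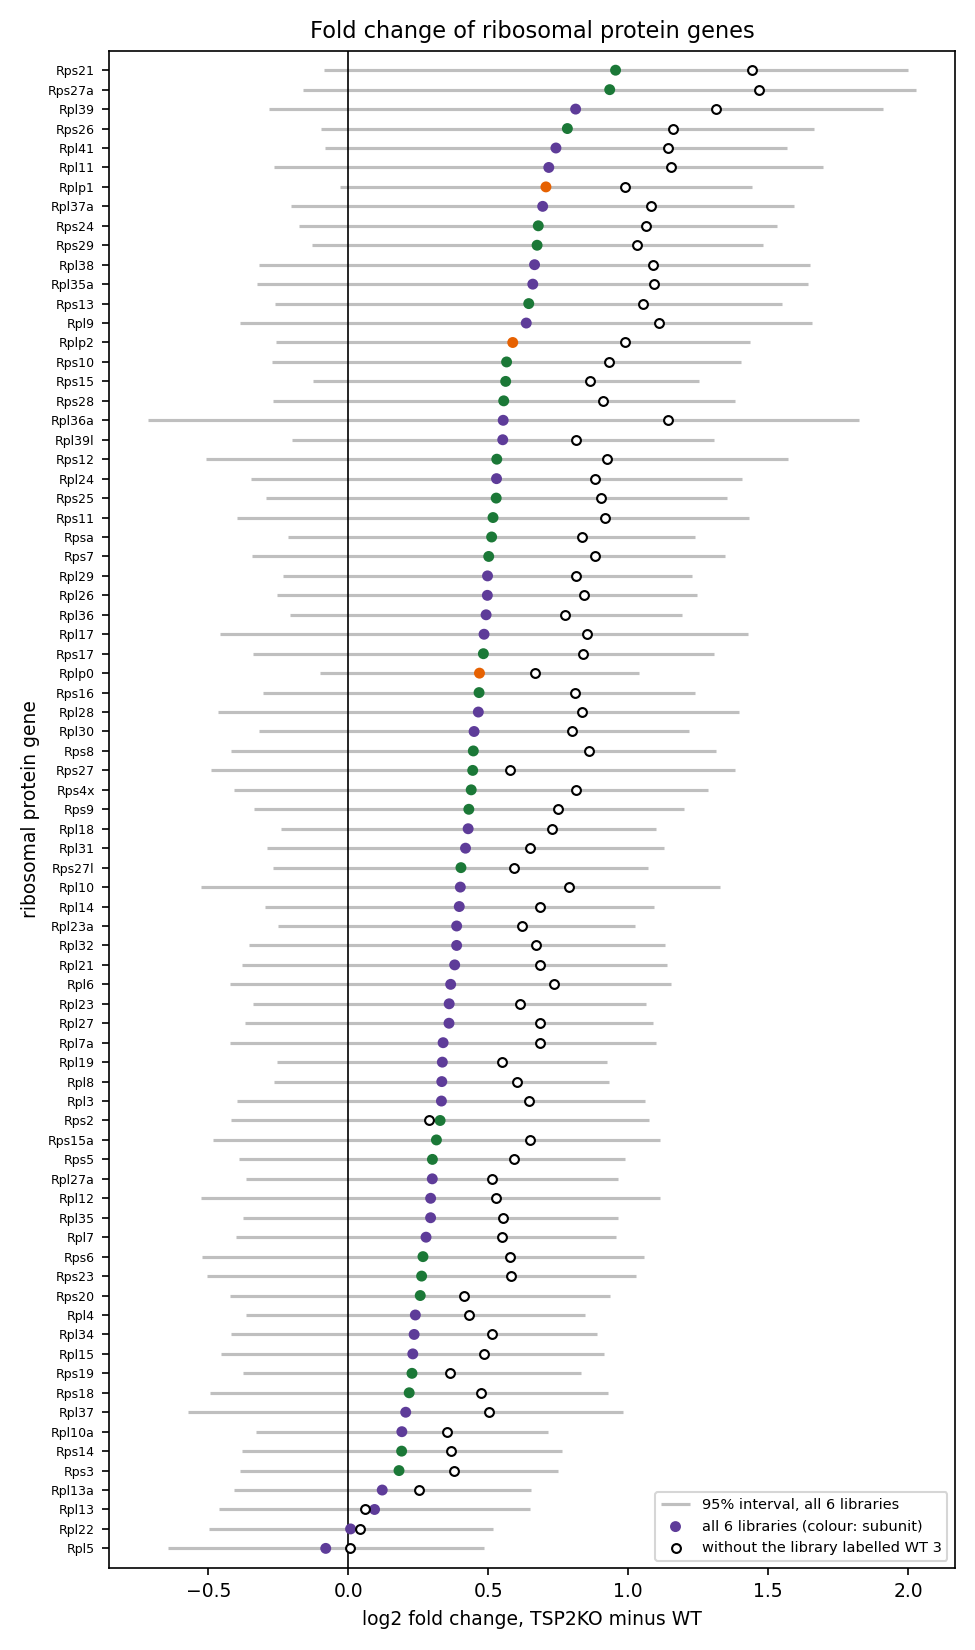
Log2 fold change, TSP2KO minus WT, of 77 of the 78 members with all 6 libraries (filled points, coloured by subunit, with 95% intervals) and without the library labelled WT 3 (open points). With all libraries every interval drawn spans 0, and values run from -0.08 for Rpl5 to 0.95 for Rps21.

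Among small-subunit members the median log2 fold change was 0.47, from 0.18 to 0.95, and 0.83 without the library labelled WT 3. Rps21, a short protein on the solvent side of the subunit, had the highest value. It stood at 37.6, 43.5 and 112.9 normalised counts in the WT libraries and at 110.9, 89.5 and 139.8 in TSP2KO. WT 1 and WT 2 were well below the other 4, and the groups overlapped through the library labelled WT 3. Its log2 fold change was 0.95 (SE 0.44, limma adjusted p = 0.557), and 1.44 without that library (limma adjusted p = 0.0421). Rps21 lies at chr2:180257377-180258445 (plus strand, ENSMUSG00000039001.12).

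Rps27a encodes ubiquitin fused to a small-subunit protein. It stood at 80.6, 114.7 and 292.9 in WT and at 298.1, 207.2 and 309.4 in TSP2KO, so again only WT 1 and WT 2 were low. The log2 fold change was 0.93 (SE 0.47, limma adjusted p = 0.600), and 1.47 without the library labelled WT 3 (limma adjusted p = 0.0360). None of its windows was unique, 13 copy rows held more than its own row, and with these added it did not pass.

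Rps26, at the channel where messenger RNA leaves the small subunit, stood at 139.9, 190.4 and 359 in WT and 371, 280.4 and 472 in TSP2KO. Its log2 fold change was 0.78 (SE 0.38, limma adjusted p = 0.575). Rps29, a small zinc-binding protein, stood at 105.3, 137.5 and 253.6 in WT and 236.8, 215.0 and 295.4 in TSP2KO. Its log2 fold change was 0.67 (SE 0.34, limma adjusted p = 0.606). In both, TSP2KO 3 was the highest library and WT 1 the lowest. Leaving out the library labelled WT 3 gave 1.16 for Rps26 and 1.03 for Rps29, neither past the threshold.

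Rps6, the substrate of S6 kinase downstream of mTOR, stood at 431, 634 and 1001 in WT and 833, 594 and 963 in TSP2KO. The library labelled WT 3 was the highest, and TSP2KO 2 lay below WT 2. The log2 fold change was 0.27 (SE 0.34, limma adjusted p = 0.846). Rps19, the gene most often mutated in Diamond-Blackfan anaemia, stood at 750.0, 1057 and 1179 in WT and 1053, 941 and 1514 in TSP2KO. For Rps19 the log2 fold change was 0.23 (SE 0.26). Both genes had overlapping groups, also without the library labelled WT 3, which gave 0.58 for Rps6 and 0.36 for Rps19.

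Rpsa, a small-subunit protein also known as the laminin receptor precursor, stood at 711, 897 and 1562 in WT and 1470.3, 1174 and 1675 in TSP2KO. Rps4x, the X-linked form of its protein, stood at 508, 723 and 1321 in WT and 1090.0, 842 and 1318 in TSP2KO. Their log2 fold changes were 0.51 (SE 0.31) and 0.44 (SE 0.36), or 0.83 and 0.81 without the library labelled WT 3, and in each the library labelled WT 3 was among the highest values. Rps3, which lines the entry of the messenger RNA and has 91.9% unique windows, had the smallest change of the small subunit, 0.18 (SE 0.24), and 0.38 without that library. It stood at 2405, 2964 and 4032 in WT and 3424, 2946 and 4152 in TSP2KO.

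Rps12 and Rps27 had low rows and copies that held more. Rps12 stood at 23.9, 32.3 and 64.3 in WT and 75.5, 40.6 and 50.5 in TSP2KO, beside 18 copy rows that held more than its own row. Rps27 stood at 12.6, 24.8 and 23.6 in WT and 25.0, 24.4 and 31.9 in TSP2KO, the lowest mean of any member (23.7), while its identical copy Rps27rt had a mean of 756. Rps27l, a paralog known as a p53 target, stood at 832, 1366 and 1585 in WT and 1569.5, 1317 and 2012 in TSP2KO. Its log2 fold change was 0.40 (SE 0.29) and that of Rps27 0.44 (SE 0.40), neither past the threshold. These were 0.59 and 0.58 without the library labelled WT 3. With its copies added, the value of Rps27 was 0.10.

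Rps2 followed another order, and is named after its values were seen. It stood at 604, 384 and 444 in WT and 448, 918 and 496 in TSP2KO. TSP2KO 2 was the highest library by far and WT 1 the next. In Rpl13 too TSP2KO 2 was highest, WT 1 next and WT 2 lowest, with 251.7, 180.5 and 198.7 in WT and 213.8, 276.1 and 186.0 in TSP2KO. These were the members with TSP2KO 2 highest. The log2 fold change was 0.33 for Rps2 and 0.09 for Rpl13, or 0.29 and 0.06 without the library labelled WT 3. Rpl13 overlaps Galnt2l on the same strand, whose mean was 1060, so reads may be split between them. Copy rows also held more than each row, with means of 1390 beside 218 for Rpl13 and 1476 beside 549 for Rps2. With copies added, TSP2KO 2 was still the highest library and WT 2 the lowest for both genes. The cause of this order was not tested.

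Among large-subunit members the median was 0.38, from -0.08 to 0.81, and 0.68 without the library labelled WT 3. Rpl41 encodes the shortest ribosomal protein, with a coding sequence of 75 bases that is shown whole because its row passed without the library labelled WT 3. It has no copy row, but 1 listed gene that is not counted as a copy row shares coding sequence with it. None of its windows was unique in the annotation.
Rpl41: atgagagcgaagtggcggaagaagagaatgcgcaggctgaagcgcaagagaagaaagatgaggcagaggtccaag

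Rpl41 stood at 564, 781 and 1533 in WT and 1423, 1370.2 and 1622 in TSP2KO. The TSP2KO values were close to each other and to the library labelled WT 3. Its log2 fold change was 0.74 (SE 0.35, limma adjusted p = 0.567), and 1.14 without that library (limma adjusted p = 0.0296). It lies at chr10:128548114-128549305 (minus strand, ENSMUSG00000093674.7).

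Rpl39 had the highest fold change of the large subunit, 0.81 (SE 0.47, limma adjusted p = 0.666). It stood at 119.0, 188.3 and 427 in WT and 393, 273.0 and 485 in TSP2KO. Its paralog Rpl39l, shown above to be distinct in sequence, stood at 158.1, 239.3 and 335 in WT and 344, 268.0 and 434 in TSP2KO, with a log2 fold change of 0.55 (SE 0.32). Without the library labelled WT 3 these were 1.31 for Rpl39 and 0.81 for Rpl39l, neither past the threshold. Both rows put WT 1 lowest and TSP2KO 3 highest. Their levels per coding kilobase were 2054 and 1938 normalised counts.

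Rpl5 and Rpl11 form with 5S RNA the particle that can bind Mdm2 and release p53. Rpl5 stood at 211.1, 256.1 and 278.5 in WT and 278.2, 177.7 and 257.3 in TSP2KO, so TSP2KO 2 was the lowest library. Rpl11 stood at 32.4, 36.3 and 86.8 in WT and 95.9, 69.8 and 69.6 in TSP2KO, so WT 1 and WT 2 were the lowest. Their log2 fold changes were -0.08 (SE 0.24) and 0.72 (SE 0.42), and the difference between them was not tested. They were 0.01 and 1.15 without the library labelled WT 3. The Rpl5 row held only 4.85% of the sum with its copies, and with copies added its fold change was 0.33. It also overlaps Dipk1a on the other strand, whose mean of 457 was above its own.

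Rpl3, near the peptidyl transferase centre, stood at 386, 511 and 850.3 in WT and 741, 565 and 801 in TSP2KO. Its log2 fold change was 0.33 (SE 0.31), with 0.17 when its copies were added and 0.64 without the library labelled WT 3. The mean of the Rpl3 row was 642, and that of Rpl3-ps1, a processed pseudogene on chromosome X identical at 1207 of 1209 coding bases, was 4533. Rpl10 stood at 116.5, 144.2 and 291.7 in WT and 252.8, 156.8 and 285.5 in TSP2KO, a mean of 207.9 beside 3023 for Rpl10-ps3. The log2 fold change of Rpl10 was 0.40 (SE 0.40), and 0.79 without the library labelled WT 3. In these pairs most of the signal is listed under the copy.

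Rpl4, whose protein reaches into the exit tunnel, had the highest mean of the large subunit and 79.7% unique windows. It stood at 3682, 4635 and 6173 in WT and 5687, 4425 and 6885 in TSP2KO, a difference of 0.24 on the log2 scale (SE 0.26). Rpl22, which has an RNA-binding role beside the ribosome and 69.0% unique windows, stood at 394, 476 and 466 in WT and 429.6, 365 and 566 in TSP2KO, a difference of 0.01 on the log2 scale (SE 0.22). For Rpl22 the highest library was TSP2KO 3 and the lowest TSP2KO 2. Without the library labelled WT 3 the differences were 0.43 for Rpl4 and 0.04 for Rpl22.

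The P stalk recruits the elongation factors and is built of Rplp0 at its base and dimers of Rplp1 and Rplp2. Rplp0, with the highest level of the 3, stood at 3376, 4073 and 5609 in WT and 5969, 4914 and 6965 in TSP2KO. Rplp1 stood at 449, 657 and 982 in WT and 992, 916 and 1387 in TSP2KO. Rplp2 stood at 88.4, 114.0 and 232.8 in WT and 213.1, 187.3 and 201.3 in TSP2KO. Rplp0 and Rplp1 had 1 TSP2KO library below the library labelled WT 3, and for Rplp2 all 3 lay below it. The log2 fold changes were 0.47 (SE 0.24), 0.71 (SE 0.31) and 0.59 (SE 0.36) for Rplp0, Rplp1 and Rplp2, or 0.67, 0.99 and 0.99 without the library labelled WT 3. The smallest p of all members was that of Rplp1 (limma, unadjusted p = 0.0578 and adjusted p = 0.527).

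Members with mostly unique sequence also had their lowest medians in WT 1 and WT 2. In the 12 with at least 50% unique windows, the median difference from WT 1 and WT 2 was 0.68, 0.35 and 0.97 in TSP2KO 1, 2 and 3, and 0.83 in the library labelled WT 3. In the 29 without a unique window these values were 0.84, 0.51, 0.97 and 1.06. The 210 copy rows that were tested gave 0.69, 0.50, 0.99 and 0.85. The median log2 fold change was 0.39 for the 12 members, 0.46 for the 29 and 0.47 for the copy rows, or 0.64, 0.81 and 0.73 without the library labelled WT 3.

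Ribosomal proteins and ribosome-associated genes outside the symbol rule had their lowest medians in WT 1 and WT 2. Rps27rt, 1 of these genes, is also a copy row, so they are not separate from the copies above. The list of 8, which includes Rps3a1, Fau, Rack1, Rpl36al, Rpl22l1, Rpl7l1 and Rps27rt, had a median log2 fold change of 0.36, with 0 past the threshold. The median was 0.71 without the library labelled WT 3, with 1 past it, Rpl36al. Fau, a ubiquitin-like protein fused to a small-subunit protein, stood at 130.0, 159.6 and 325 in WT and 295.0, 223.3 and 327 in TSP2KO. Rack1, a scaffold on the small subunit, stood at 1680.0, 2161 and 4276 in WT and 3885, 2817 and 4184 in TSP2KO.

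Genes that work with the ribosome were taken from lists by role. The 24 TOP messengers other than ribosomal proteins, which include elongation factors, had a median of 0.17, the 34 genes of ribosome biogenesis 0.21, the 19 tested genes of RNA polymerase I and III 0.21, the 26 initiation factors 0.12 and the 7 chaperones of ribosomal proteins 0.18. The 20 tested regulators, among them Myc, Mtor and Larp1, had a median of -0.05, and the 78 proteins of the mitochondrial ribosome, a separate machine, 0.13. Without the library labelled WT 3 these medians were, in that order, 0.31, 0.50, 0.22, 0.20, 0.27, 0.01 and 0.21. Each of these lists had 0 members past the threshold in either direction with all libraries. Without the library labelled WT 3, Eef1d of the TOP list (1.03, limma adjusted p = 0.0342), Nhp2 of biogenesis (1.08, 0.0466) and Rpl36al (0.88, 0.0485) passed. These are 1 gene each of 24, 34 and 8 tested, beside 2.43% of all tested genes called higher in that fit. The other lists named in this paragraph had 0.

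The examples with the smallest p in the TOP list were Snhg5, Eef1g and Eef1d. Eef1d, a subunit of the elongation factor exchange complex, stood at 709, 929 and 1930 in WT and 1698, 1497 and 1808 in TSP2KO. Bysl, needed to make the small subunit, stood at 623, 667 and 955 in WT and 1098, 978 and 928 in TSP2KO. Both had WT 1 and WT 2 as the lowest pair, as most members did. The 15 p53 targets had a median of 0.21, and 0.19 without the library labelled WT 3, with 0 past the threshold in both.

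**Figure D5:**
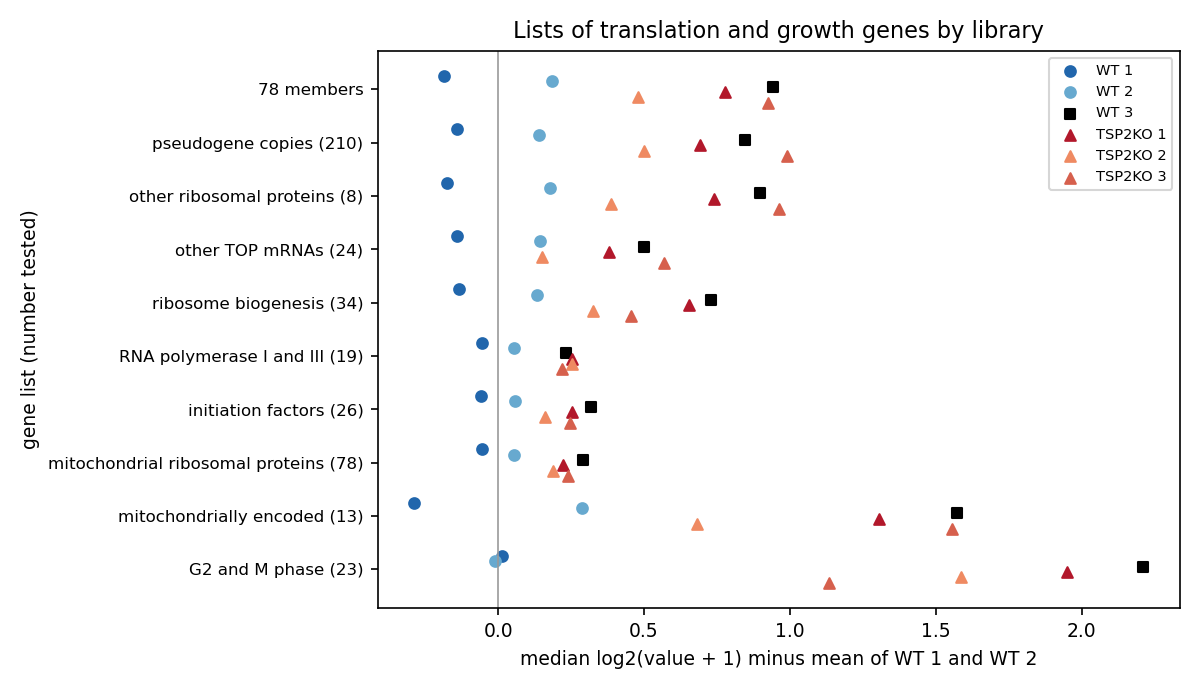
Median log2(value + 1) minus the mean of WT 1 and WT 2 for the members and for lists of genes of translation and growth, with 1 symbol per library. The members, their copies and the other ribosomal proteins lie at 0.85 to 0.94 in the library labelled WT 3, the mitochondrial ribosome at 0.29 and the G2 and M phase genes at 2.21.

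Other quantities also set WT 1 and WT 2 apart from the other 4 libraries, but not always in the members' order. Among the TSP2KO libraries, TSP2KO 3 had the highest median for the members and the lowest for the G2 and M phase genes. The 23 genes of G2 and M phase lay above WT 1 and WT 2 by a median of 1.95, 1.59 and 1.13 in TSP2KO 1, 2 and 3, and of 2.21 in the library labelled WT 3. With all libraries 0 of the 23 passed, with a median log2 fold change of 0.78. Leaving out the library labelled WT 3, 16 of the 23 were higher (background 2.43% of tested genes) and the median was 1.55. The 13 mitochondrially encoded genes lay above them by 1.31, 0.68 and 1.56 in TSP2KO and 1.57 in the library labelled WT 3. They had 0 past the threshold and a median log2 fold change of 0.69, with 1 past it, mt-Nd4l, and 1.17 without the library labelled WT 3. Estimated depth ran the other way: 24988228 and 34599820 reads in WT 1 and WT 2, and 14776497 to 20521983 in the other 4. The part of these in the members' values was not tested.

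Markers of the labelled cell type were present: all 10 fibroblast markers were detected, with summed values of 343670, 344500 and 189610 in WT and 155690, 166710 and 248040 in TSP2KO. All 16 keratinocyte markers were listed, and they summed to 2314, 832 and 58018 in WT and 20287, 17568 and 754 in TSP2KO. All 17 macrophage markers were listed, and they summed to 6491, 5457 and 3656 in WT and to 788, 954 and 916 in TSP2KO. Over the 15 tested, the median difference from WT 1 and WT 2 was -0.16 in the library labelled WT 3. It was -2.41, -2.28 and -2.72 in TSP2KO 1, 2 and 3, so here that library followed its label. Of the 15 macrophage markers tested, C1qb was lower in TSP2KO (log2 fold change -3.60, limma adjusted p = 0.0456), beside 0.0612% of all tested genes. Leaving out the library labelled WT 3, 12 of the 15 were lower (background 2.75%), among them C1qb at -3.73. In bulk RNA, fewer cells of a type and less RNA per cell cannot be told apart, and the part of other cells in the members' values was not tested.

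Of the endothelial (9 tested), melanocyte and Schwann (6), skeletal muscle (2), adipocyte (2) and T and mast cell (2) markers, 0 passed with all libraries. Without the library labelled WT 3, Emcn, Acta1 and Pparg, 1 each of the endothelial, muscle and adipocyte lists, were higher in TSP2KO. Of the 10 fibroblast markers, 0 passed with all libraries, and without that library S100a4 was higher and Pdgfra lower. In the fit without that library 2.43% of all tested genes were higher and 2.75% lower.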

How the data were processed

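The authors deposited 1 table of normalised counts, used here as a signal that is not whole counts, for 6 libraries. Per the submitters' processing notes, STAR, Partek and DESeq2 were used on build mm10. Cell Ranger and Seurat 5.0.3 are also named and were not used here. The counting options, including strand and the treatment of reads that fit several genes, are not given in the sources. Whole reads were not recovered, so no count test was run. Each column was matched by genotype and number, as its suffix differs from the labels.

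Values were taken as log2(value + 1), which understates changes of low genes. Genes with a mean of at least 10 were tested, 14707 in all, with limma 3.58.1 (R 4.3.3), using a mean-variance trend and a two-sided test, with Benjamini-Hochberg adjustment over all tested genes and a threshold of 0.05. The fit was tested on simulated data, in which each gene varied independently and with the same spread in both groups. That test did not cover genes that move together or a library that goes against its label. Coordinates of all 78 members matched GENCODE M21, from whose transcripts coding windows of 50 and 75 bases were compared. A copy row is a listed pseudogene, or a gene with a symbol starting Rpl or Rps, that shares a window with a member and is no member itself.

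The members and lists were chosen with earlier results of these data known. Named members were those the symbol rule cites, the P stalk, paralogs beside their parents, Rpl5, Rpl11, Rps6 and Rps19, the extremes of p, fold change and mean, and those past the threshold. Values of 1 such member and of 1 gene of a list are not reported here. Rpl3l, Rpl10l and Rps4l had no row that met the rule, so they are not members and have no values here. From each list up to 3 genes with the smallest p could be named, and those past the threshold. Alternatives were pseudocounts, filters, 2 rescalings, limma-voom, a replicate block and leaving out each library. Adding the copies was chosen after seeing the data.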

Additional observations from a re-analysis of the deposited data

How the results depend on the processing

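With all 6 libraries, 0 members passed in either direction under pseudocounts of 0.1 and 10, no filter, a mean of at least 100 (70 members tested), TMM factors, a common library total, limma-voom and copies added, and the median log2 fold change stayed between 0.40 and 0.50. Over all tested genes these fits called 0% higher and at most 0.0952% lower. Leaving out 1 library, 0 to 3 members were higher and 0 were lower. The 3 came without the library labelled WT 3 (3.85%, against 2.43% of tested genes), where the background for lower was 2.75%. In the other leave-one-out fits 0% of tested genes passed. The median ran from 0.18 without WT 1 to 0.73 without the library labelled WT 3. Without that library and with copies added, 8 were higher (10.3%, against 2.45%) and the median was 0.74. Named members near 0 changed sign. Leaving out 1 library, Rpl22 ran from -0.16 to 0.15, Rpl5 from -0.21 to 0.12 and Rps6 from -0.029 (without WT 1) to 0.58. Rpl5 was 0.33 with copies added, and 0.67 with copies added and without the library labelled WT 3. The cause was not tested. With the replicate number as a block, 0 members passed and the median was 0.43. Same-numbered libraries had correlations of -0.42, -0.25 and -0.40 in their deviations from the group means. Pairs with different numbers ran from -0.47 (WT 2 with TSP2KO 1) to 0.55 (the library labelled WT 3 with TSP2KO 1). With 3 libraries per group, and Thbs2 in the library labelled WT 3 against its label, these cannot tell whether the numbers pair the libraries. The 3 libraries per group and the spread within WT limit precision: the median SE of a member's log2 fold change was 0.32.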
